A study of Mus musculus with 25 samples.

Results

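The 8 genes Cybrd1, Slc11a2, Slc40a1, Heph, Fth1, Ftl1, Tfrc and Epas1, which carry, store or control iron on its way through the absorbing cells of the duodenum, were followed in mouse duodenum. They were chosen by name, as the iron reductase, the importer, the exporter and its partner oxidase, the ferritins, the transferrin receptor and the transcription factor HIF-2α, and are 8 of the 17007 genes in the deposited count table. Polyadenylated RNA of the duodenum was sequenced in 25 libraries from male mice, either C57BL/6N wild type (WT) or Aldh2 knock-in (KI), a line altered in the mitochondrial enzyme that clears acetaldehyde. The diets began at an age of 8 weeks and lasted 8 weeks. The groups WT_Con (4 libraries) and KI_Con (4) received the control diet. WT_Half (7) and KI_Half (6) received the milder regimen, a diet with 2.5% ethanol and 2 ethanol gavages of 2 g/kg per week. WT_Full (4) received the stronger regimen, a diet with 5% ethanol and 2 gavages of 4 g/kg per week. The duodenum was collected 9 h after the final ethanol gavage, of 5 g/kg, so the acute dose and the weeks of feeding cannot be told apart. The sources used here do not say whether control mice were gavaged. KI mice under the stronger regimen were not analysed here, the labels do not name the knock-in allele, and gene counts do not show it.

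Dietary iron enters a duodenal enterocyte after a reductase turns it to its ferrous form and a proton-coupled importer carries it across the brush border. Inside, iron is stored in ferritin or leaves through ferroportin at the basolateral membrane, where a membrane oxidase prepares it for transferrin in blood. Iron regulatory proteins bind hairpins called iron-responsive elements in several of these mRNAs, blocking translation when the hairpin lies in the 5′ untranslated region and stabilising the mRNA when it lies in the 3′ untranslated region, while HIF-2α raises transcription of the reductase, the importer and the exporter.

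The hairpins are shown because they are where the iron regulatory proteins bind. Transcripts of GENCODE M21 (GRCm38) were searched on their own strand for an unpaired C, a stem of 5 base pairs with G-T pairs allowed, and the loop CAGTGN, with or without 1 extra base on the 3′ side of the stem. Without the extra base, 0.135% of 19998 genes with a 5′ untranslated region and 0.607% of 20772 genes with a 3′ untranslated region held a match, and 0.2% and 1.11% held one with the extra base. Of the 8 members, 6 held at least 1 match and Cybrd1 and Heph held none. In the lines that follow, capitals mark the loop.
Fth1, 5′ untranslated region, chr19:9982732-9982760, plus strand: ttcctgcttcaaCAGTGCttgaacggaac
Ftl1, 5′ untranslated region, chr7:45459779-45459807, minus strand: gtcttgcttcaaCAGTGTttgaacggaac
Slc40a1, 5′ untranslated region, chr1:45925465-45925493, minus strand: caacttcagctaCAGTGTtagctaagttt
Epas1, 5′ untranslated region, chr17:86753768-86753797, plus strand, with the extra base: tacaatcctcggCAGTGTcctgagactgta
Slc11a2, 3′ untranslated region, chr15:100395152-100395181, minus strand, with the extra base: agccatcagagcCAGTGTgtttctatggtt
Tfrc, 3′ untranslated region, chr16:32631219-32631247, plus strand: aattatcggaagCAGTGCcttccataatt
Tfrc, 3′ untranslated region, chr16:32631598-32631626, plus strand: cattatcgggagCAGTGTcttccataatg
Tfrc, 3′ untranslated region, chr16:32631663-32631691, plus strand: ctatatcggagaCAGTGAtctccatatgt
Tfrc, 3′ untranslated region, chr16:32631710-32631738, plus strand: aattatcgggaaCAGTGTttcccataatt
The Slc11a2 match lies in 1 annotated transcript, and counts per gene do not separate the transcripts that hold it from those that do not. Tfrc held 4 matches, all in its 3′ untranslated region, where the other members with a match held 1 each.

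Library totals ran from 24.6 to 44.8 M counts with a median of 32.0 M, and no member fell below 888 counts in any library. Levels are counts per mega (M) counts of a library (CPM) after scaling by the trimmed mean of M values. Villus enterocyte markers (12 of 12 measured) summed to between 17258 and 52481 CPM in every library, while the distal markers Fabp6, Fgf15 and Nts were not among the genes in the table. The sampled pieces were not alike in other respects: the sum of 10 pancreatic acinar genes exceeded 1000 CPM in WT_Con replicates 1 and 3 and KI_Con replicates 1 and 2, and was at most 59.7 CPM in each ethanol library. The sum of 3 Brunner gland genes ran from 35.1 to 53685 CPM within WT_Con alone, with a median of 21929 CPM. Its medians were 123 CPM in WT_Half, 43.7 in WT_Full, 643 in KI_Con and 330.1 in KI_Half. The WT diet groups thus also differed in the median of this sum, whose part in the results was not tested. WT_Con replicate 3 held the 53685 CPM, and its sum of 6 measured stomach genes was 16987 CPM. The WT_Con median of the stomach sum was 2242 CPM, and no library of another group exceeded 2717 CPM. The part of the stomach sum was not tested either. In whole tissue, fewer cells of a type and less RNA per cell cannot be told apart. The labels do not say that each library is 1 animal, so p-values measure the spread between these libraries. No batch or date is given.

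**Figure D1:**
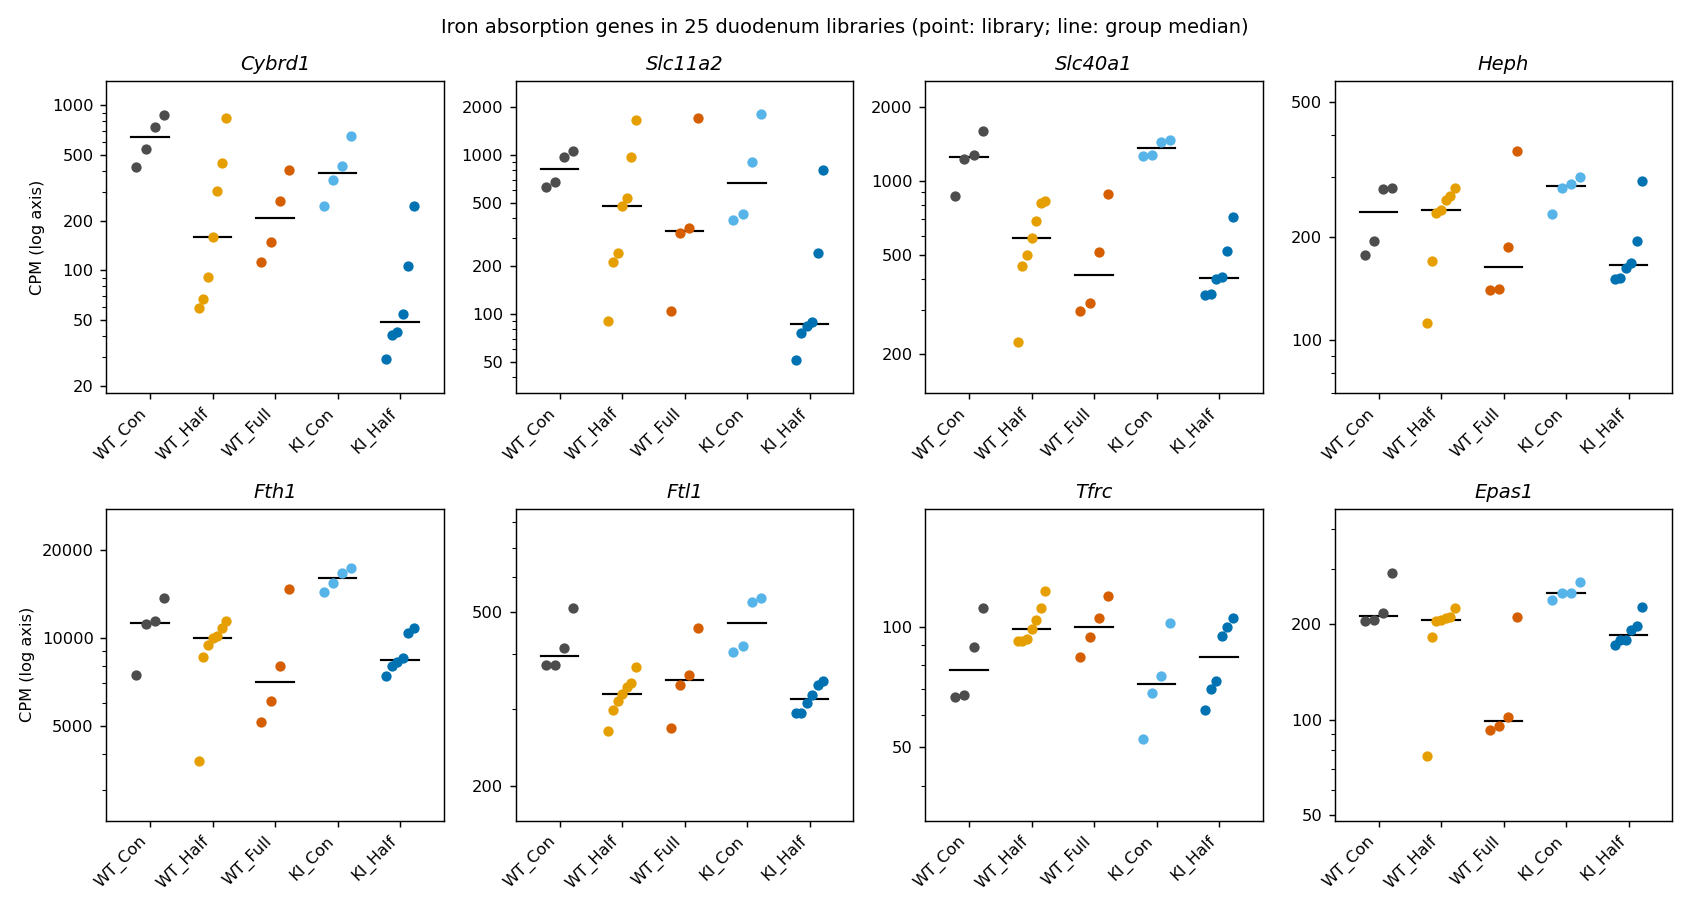
CPM of the 8 genes in each of the 25 libraries (log axis, 1 point per library, a line at the group median) for WT_Con, WT_Half, WT_Full, KI_Con and KI_Half. Slc40a1 is at most 886 CPM in all ethanol libraries and at least 873 CPM in all control libraries, Cybrd1 and Slc11a2 spread widely within the ethanol groups, and the Tfrc groups overlap their controls.

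Cybrd1 (ENSMUSG00000027015, chr2:71117923-71142926, plus strand, GRCm38) encodes the brush-border ferric reductase that readies iron for uptake. Its level in WT_Con replicates 1 to 4 was 737, 423, 875 and 539.9 CPM, and in KI_Con it was 354, 246, 426 and 652 CPM. In WT_Full it was 149.7, 112, 264 and 403 CPM, in WT_Half the lowest, median and highest were 59.0, 160.4 and 834 CPM, and in KI_Half they were 29.1, 48.5 and 244 CPM. All 6 KI_Half libraries lay below the lowest KI_Con library, the nearest pair being 244 and 246 CPM, and 9 of 11 WT ethanol libraries lay below the lowest WT_Con library. Against KI_Con the KI_Half level fell by 2.26 ± 0.55 (SE) on the log2 scale, a level 4.80-fold lower (adjusted p = 0.00866, edgeR quasi-likelihood test with Benjamini-Hochberg adjustment over all genes). With single libraries left out the log2 difference ran from -2.93, without KI_Half replicate 7, to -1.97, without KI_Con replicate 4, and it passed each time.
In WT the log2 difference from control was -1.20 ± 0.63 under the milder regimen (adjusted p = 0.285) and -1.47 ± 0.40 under the stronger regimen (adjusted p = 0.171), and neither passed. WT_Full and WT_Con did not overlap in Cybrd1. The WT_Half libraries covered a 14.1-fold range in which replicates 3 and 6 (449.9 and 834 CPM) lay among the controls.

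Slc11a2 (ENSMUSG00000023030, chr15:100387898-100425072, minus strand) encodes DMT1, the importer of ferrous iron. It was the most scattered of the 8. Its level was 969, 671, 626 and 1051 CPM in WT_Con, 907, 426, 1821 and 388 CPM in KI_Con, and 323, 346, 104 and 1718 CPM in WT_Full. The lowest, median and highest were 90.2, 476 and 1667 CPM in WT_Half and 51.1, 86.6 and 805 CPM in KI_Half. In KI_Half 5 of 6 libraries were below every KI_Con library, and replicate 7, at 805 CPM, was inside the KI_Con range. In WT, 8 of 11 ethanol libraries were below the lowest control library and 2 were above the highest, so ethanol libraries lay on either side.
The difference of KI_Half from KI_Con was -1.97 ± 0.77 on the log2 scale and missed the threshold (adjusted p = 0.0647). Without KI_Half replicate 7 it was -3.02 ± 0.55 (adjusted p = 0.00124). The differences in WT were -0.47 ± 0.60 under the milder and -0.42 ± 0.70 under the stronger regimen (adjusted p = 0.68 and 0.772), with intervals of 2 SE from -1.66 to 0.73 and from -1.82 to 0.97. Without WT_Full replicate 4 the latter difference was -1.67 ± 0.42 (adjusted p = 0.0401).

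Slc40a1 (ENSMUSG00000025993, chr1:45908068-45926523, minus strand) encodes ferroportin, the exporter of iron to blood. Its level was 1588, 1229.6, 873 and 1274 CPM in WT_Con and 1269.8, 1441, 1461 and 1266 CPM in KI_Con. It was 319.6, 516, 298 and 886 CPM in WT_Full, 222 to 827 CPM in WT_Half (median 588), and 344 to 716 CPM in KI_Half (median 406). In KI 6 of 6 and in WT 10 of 11 ethanol libraries lay below every control library of their genotype. Ftl1 had the same 2 counts, while Cybrd1, Fth1 and Epas1 matched it in KI and had fewer in WT. The exception for Slc40a1 was WT_Full replicate 4, at 886 CPM against a lowest control of 873.
KI_Half was 2.95-fold lower than KI_Con, a log2 difference of -1.56 ± 0.20 (adjusted p = 0.000463). The log2 difference was -1.08 ± 0.29 for WT_Half (adjusted p = 0.0728, groups not overlapping) and -1.30 ± 0.36 for WT_Full (adjusted p = 0.171). In the authors' deposited table, the DESeq2 test of WT_Full vs WT_Con gave Slc40a1 a log2 fold change of -1.29 with an adjusted p of 0.0049. The count test run here and the deposited one thus gave like sizes and different calls for this gene. DESeq2 on the same libraries (adjusted p = 0.0188) and 1 edgeR fit of all 25 libraries (adjusted p = 0.0245) called it too. The deposited test may rest on more libraries than those of these 2 groups.

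Heph (ENSMUSG00000031209, chrX:96455359-96574485, plus strand) encodes hephaestin, the oxidase that works with ferroportin. Its level was 278, 279.9, 177 and 195 CPM in WT_Con, 299.9, 279, 234 and 287 CPM in KI_Con, 141, 187, 140.2 and 359 CPM in WT_Full, 112 to 279 CPM in WT_Half (median 241), and 151 to 292 CPM in KI_Half (median 165). Every group overlapped its control: KI_Half replicate 7 (292 CPM) was above 3 of the 4 KI_Con libraries while the other 5 were below all of them. The log2 difference of KI_Half from KI_Con was -0.55 ± 0.18 (adjusted p = 0.0355). This call was lost when most single libraries were left out, with adjusted p from 0.056 to 0.0911 in those 8 fits, and in 1 fit of all 25 libraries (0.0977). In WT the log2 differences were -0.06 ± 0.23 and -0.17 ± 0.32 under the milder and stronger regimens, neither passing.

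Fth1 (ENSMUSG00000024661, chr19:9980598-9985098, plus strand) encodes the ferritin heavy chain, which oxidises iron as it enters the storage shell. It was at 13731, 11405, 7468 and 11169 CPM in WT_Con and at 16651, 15456, 14374 and 17333 CPM in KI_Con, so every KI control lay above every WT control. It was at 6089, 8004, 5143 and 14695 CPM in WT_Full, 3781 to 11417 CPM in WT_Half (median 9965) and 7372 to 10820.0 CPM in KI_Half (median 8401). All 6 KI_Half libraries lay below the KI_Con libraries and 5 of them lay inside the WT_Con range, the sixth being at 7372 against 7468 CPM. The lower end of that range was WT_Con replicate 3 alone. The other WT_Con libraries, at 11169 to 13731 CPM, lay above every KI_Half library. The log2 difference of KI_Half from KI_Con was -0.83 ± 0.14 (1.78-fold lower, adjusted p = 0.00121). That of KI_Con from WT_Con was 0.53 ± 0.20 and did not pass (adjusted p = 0.502).

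Ftl1 (ENSMUSG00000050708, chr7:45457944-45459884, minus strand) encodes the light chain, which helps iron to form its mineral core. It varied least among the 8 within groups. Its level was 511, 378, 413 and 378 CPM in WT_Con, 537, 417, 404 and 526 CPM in KI_Con, 339.9, 359, 272 and 458 CPM in WT_Full, 267 to 374 CPM in WT_Half (median 325) and 293 to 347 CPM in KI_Half (median 316). WT_Half and KI_Half each lay wholly below their controls. The log2 difference was -0.56 ± 0.11 in KI (adjusted p = 0.00257) and -0.38 ± 0.12 in WT, where it did not pass (adjusted p = 0.116). Processed copies of both ferritin genes are annotated in the mouse genome (Ftl1-ps1, Ftl1-ps2, Ftl2-ps, Fth-ps2 and Fth-ps3), and the counting of reads that match several places is not stated in the labels, so the ferritin levels are uncertain to that extent.

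Tfrc (ENSMUSG00000022797, chr16:32608920-32632794, plus strand) encodes transferrin receptor 1, through which cells take up transferrin-bound iron from blood. Its level was 88.7, 111, 67.3 and 66.7 CPM in WT_Con, 68.4, 75.3, 102 and 52.5 CPM in KI_Con, 119, 105, 94.1 and 84.1 CPM in WT_Full, 91.9 to 123 CPM in WT_Half (median 98.6) and 61.9 to 105 CPM in KI_Half (median 84.0). Every ethanol group overlapped its control. It was the 1 member with a log2 difference above 0 in all 3 ethanol comparisons: 0.29 ± 0.15 in WT_Half, 0.28 ± 0.20 in WT_Full and 0.18 ± 0.20 in KI_Half (adjusted p = 0.268, 0.477 and 0.512). None passed, and the intervals of 2 SE reached up to 0.59, 0.68 and 0.58. The mRNA with 4 matches to the hairpin pattern searched in its 3′ untranslated region thus showed no difference that passed the test.

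Epas1 (ENSMUSG00000024140, chr17:86753700-86833410, plus strand) encodes HIF-2α, whose protein level is set mainly after transcription. Its mRNA was at 205, 289.7, 206 and 218 CPM in WT_Con, 273, 238, 251 and 251 CPM in KI_Con, 102, 92.9, 95.6 and 211 CPM in WT_Full, 76.9 to 226 CPM in WT_Half (median 207) and 172 to 227 CPM in KI_Half (median 186). Of the WT_Full libraries 3 were at 92.9 to 102 CPM, below every WT_Con library, and WT_Full replicate 4 was among the controls. The log2 difference of KI_Half from KI_Con was -0.40 ± 0.10 (1.32-fold lower, adjusted p = 0.00894), with no overlap. That of WT_Full from WT_Con was larger but more scattered, at -0.87 ± 0.28 (adjusted p = 0.19, and 0.0164 in the authors' deposited table with a log2 fold change of -0.87). Without WT_Full replicate 4 it was -1.22 ± 0.15 (adjusted p = 0.0063).

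In KI_Half 6 of the 8 genes fell against KI_Con, and none rose. The background of that comparison is high: 37.9% of 16944 genes passed at an adjusted p under 0.05, with 17.9% lower and 20.0% higher. For 5 members the groups did not overlap, with KI_Half lower (Cybrd1, Slc40a1, Fth1, Ftl1 and Epas1), as for 13.9% of all genes. The median log2 difference of the 8 was -0.69 against 0.00 over all genes tested. In falling order of size, the 6 were Cybrd1, Slc40a1, Fth1, Ftl1, Heph and Epas1. DESeq2 on the same libraries also called 6, against 41.6% of genes, and 1 edgeR fit of all 25 libraries called 4 (without Heph and Epas1), against 32.0%.
Markers of several cell types, among them the absorbing villus enterocytes, moved in the same comparison. Of 12 villus enterocyte markers 8 were lower and none higher, with a median of -0.69, equal to that of the 8 iron genes. Their sums ran from 36521 to 52481 CPM in KI_Con and from 19007 to 38935 CPM in KI_Half. Of 7 markers of all epithelium 4 were higher (median 0.84, sums 9248 to 12455 against 13067 to 22351 CPM). Of 10 acinar markers 10 were lower (sums 21.8 to 5327 against 15.2 to 26.2 CPM), as were 5 of 5 measured T and B cell markers (78.5 to 98.8 against 14.0 to 56.9 CPM) and 4 of 5 endothelial markers (90.7 to 118 against 31.4 to 73.7 CPM). Fibroblast markers were lower in 3 of 5 (313 to 447 against 139 to 265 CPM) and macrophage markers in 2 of 8 measured (159 to 321 against 63.1 to 179 CPM). Crypt and cycling cell markers were higher in 3 of 7 and lower in 1 (304 to 452 against 497 to 616 CPM), and goblet cell markers higher in 1 of 7 and lower in 3 (7509 to 11689 against 5573 to 7186 CPM). Stomach markers were lower in 2 of 6 measured and proximal intestine markers in 1 of 7, and none passed for Brunner glands, distal intestine, smooth muscle or erythroid cells. No marker in these lists was at 0 in a whole group, and their part in the result was not tested.
Another fit of all groups left out the 4 control libraries above 1000 CPM of acinar genes, an alternative chosen after the data were seen. Of KI_Con it kept only replicates 3 and 4. In it 3 of 8 members passed (Slc40a1, Cybrd1 and Ftl1) where 7.92% of all genes did, against 4 and 32.0% in the fit of all 25 libraries. The log2 differences there were -1.56 for Slc40a1, -2.63 for Cybrd1 and -0.53 for Ftl1, close to or beyond those with all libraries. That of Fth1 was -0.82 with an adjusted p of 0.104.

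**Figure D2:**
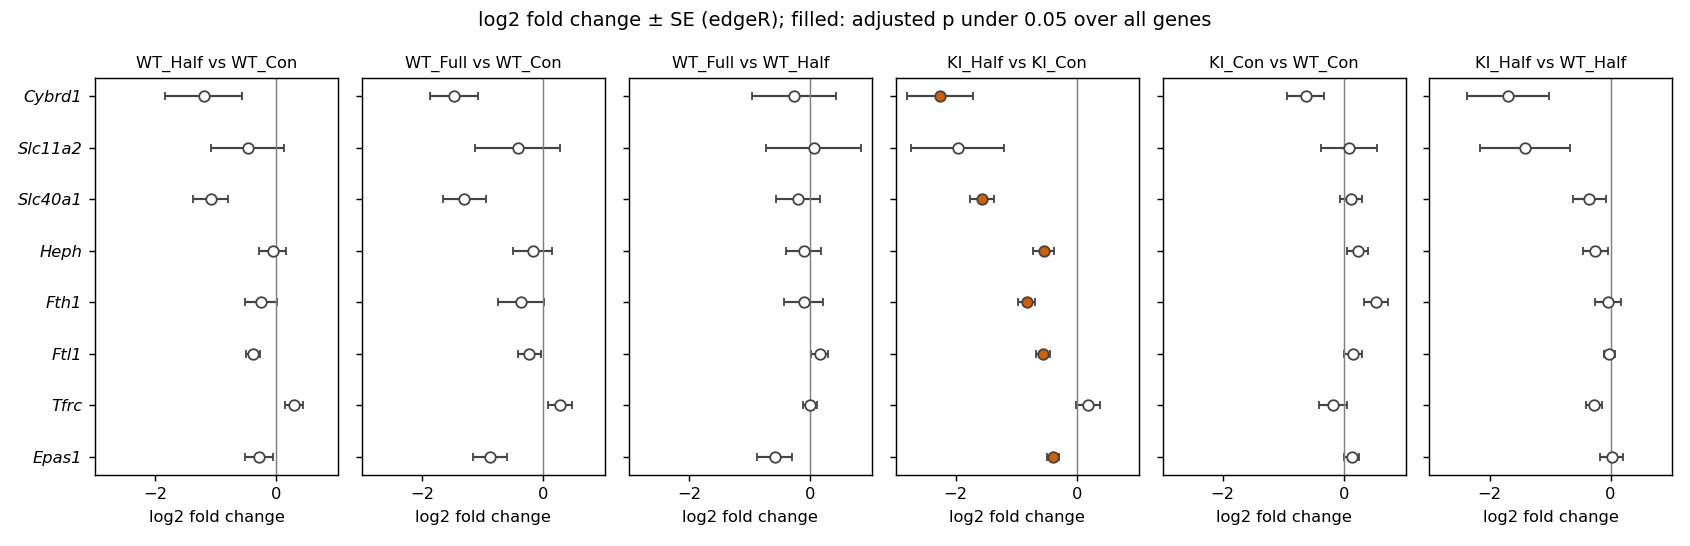
Log2 fold change of each of the 8 genes (points) with its SE (bars) in the 6 comparisons of 2 groups, from edgeR, with filled points where the adjusted p over all genes was under 0.05. Filled points stand only in KI_Half vs KI_Con, for 6 genes, and all lie below 0.

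In WT none of the 8 passed in WT_Half vs WT_Con, where 1.47% of 16993 genes did. At an unadjusted p under 0.05, 2 of 8 members were counted against 21.8% of all genes, and DESeq2 on the same libraries called 2 (Slc40a1 and Ftl1) against 7.99%. The fit of all 25 libraries called Slc40a1, among 4.23% of genes. Of the 8 differences 7 were below 0, where 50.1% of all genes were, and 2 members had groups that did not overlap and were lower, against 2.17%. The median over the 8 was -0.33 against -0.00 over all genes. In WT_Half replicate 1, Slc40a1, Heph, Fth1, Ftl1 and Epas1 were at their lowest and Tfrc at its highest of all 25 libraries. Leaving it out brought Slc40a1 past the threshold (-0.95 ± 0.20, adjusted p = 0.0402), among 2.21% of genes. That library also held the highest sum of epithelial markers of its group, 18332 CPM, and the lowest of villus markers, 20515 CPM. Its sum of crypt and cycling cell markers, 1267 CPM, was the highest of all 25 libraries. The part of these sums in the result was not tested.

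Under the stronger regimen none of the 8 passed against WT_Con either, where 0.00592% of 16882 genes did. At an unadjusted p under 0.05, 3 of 8 were counted against 17.8% of all genes, and DESeq2 called 2 (Cybrd1 and Slc40a1) against 5.52%. The fit of all 25 libraries called 2 (Slc40a1 and Epas1) against 7.58%. The authors' deposited table calls Slc40a1 and Epas1 lower, among 11.5% of genes called. Of the 8 differences 7 were below 0, again against 50.1% of all genes, with a median of -0.40 against -0.00. The groups did not overlap, lower, for 1 member, against 3.78% of genes.
Among the edgeR fits of these 2 groups with single libraries left out, the count of members called changed only without WT_Full replicate 4. That library had the highest level of its group in 7 of the 8 members and the lowest in Tfrc. Its villus marker sum of 52432 CPM compared with 17258 to 30187 CPM in the other 3. Without it 4 members passed (Cybrd1, Slc11a2, Slc40a1 and Epas1), all lower, where 12.2% of genes did. The marker sum's part in this was not tested. Both WT comparisons use the same 4 WT_Con libraries. WT_Full vs WT_Half gave no calls among the 8 or among 16967 genes (0%), with 0 members and 4.60% of genes at an unadjusted p under 0.05, while DESeq2 called 0 members and 0.118% of genes. Of the 8 differences 6 were below 0, where 45.3% of genes were, and they ran from -0.58 ± 0.29 for Epas1 to 0.16 ± 0.14 for Ftl1.

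No difference between the genotypes passed. KI_Con vs WT_Con called 0 of 8 members and 0% of 16813 genes, with 1 member (Fth1) and 9.90% of genes at an unadjusted p under 0.05 and none of the 8 called by DESeq2, which called 0.0690% of genes. Fth1 was also the 1 member whose groups did not overlap, higher, as did 2.97% of genes. Cybrd1 was at 419 ± 172 CPM (SD, n = 4) in KI_Con and 644 ± 201 CPM (n = 4) in WT_Con, a log2 difference of -0.63 ± 0.31 (adjusted p = 0.518).
Under the milder regimen, KI_Half vs WT_Half again called 0 of 8 and 0% of 16907 genes, with 1 member (Cybrd1) and 14.2% of genes at an unadjusted p under 0.05. DESeq2 called 0 members and 1.01% of genes, and the authors' deposited table calls no member among 1.24% of genes. Cybrd1 was at 86.3 ± 82.1 CPM in KI_Half (n = 6) and 280.2 ± 283 CPM in WT_Half (n = 7), a log2 difference of -1.69 ± 0.68 (adjusted p = 0.308). The same value in the authors' deposited table was -1.69 with an adjusted p of 0.157. Slc11a2 differed by -1.41 ± 0.74, and each of the other 6 by no more than 0.35 in size. With single libraries left out, the Slc11a2 difference ran from -2.48, without KI_Half replicate 7, to -0.88, without WT_Half replicate 6, and that of Cybrd1 from -2.37 to -1.10 without the same 2 libraries. Neither passed in any of these fits.
That 6 members passed in KI and none in WT does not show that the genotypes respond differently. The difference of the differences, tested as an interaction over the 21 libraries of the 4 groups, passed for 0 of 8 members and 0% of 17006 genes, with 0 members and 12.7% of genes at an unadjusted p under 0.05 and 0 members by DESeq2 (0.225% of genes). All 8 terms were below 0, where 49.0% of genes were, from -1.50 ± 1.06 for Slc11a2 and -1.07 ± 0.93 for Cybrd1 to -0.11 ± 0.26 for Tfrc and -0.11 ± 0.27 for Epas1. That of Fth1 was -0.58 ± 0.31 (adjusted p = 0.431).

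Per kilobase of annotated exon, the order of levels in WT_Con was Fth1 (3155 CPM per kb), Ftl1 (313), Slc40a1 (138), Slc11a2 (131), Cybrd1 (121), Epas1 (41.1), Heph (30.3) and Tfrc (13.5). Slc40a1, Slc11a2 and Cybrd1, the exporter, importer and reductase, were within their spread of each other in WT_Con (SD 32.5, 33.4 and 37.7). In KI_Half the mean levels of these 3 were 50.8 ± 15.8, 35.3 ± 46.0 and 16.2 ± 15.4 CPM per kb (SD, n = 6), and their ranges overlapped. The ratio of exporter to importer per kb was 0.566 to 2.39 in KI_Con (median 1.64) and 0.628 to 4.88 in KI_Half (median 3.05), so the groups overlapped, and in WT_Con it was 0.856 to 1.29. The ratio of Fth1 to Ftl1 per kb was 12.0 to 14.3 in KI_Con, above the 6.98 to 11.7 of WT_Con, and 8.20 to 12.5 in KI_Half. Lengths count every annotated exon of a gene, so a gene with long exons in rare transcripts is understated.

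**Figure D3:**
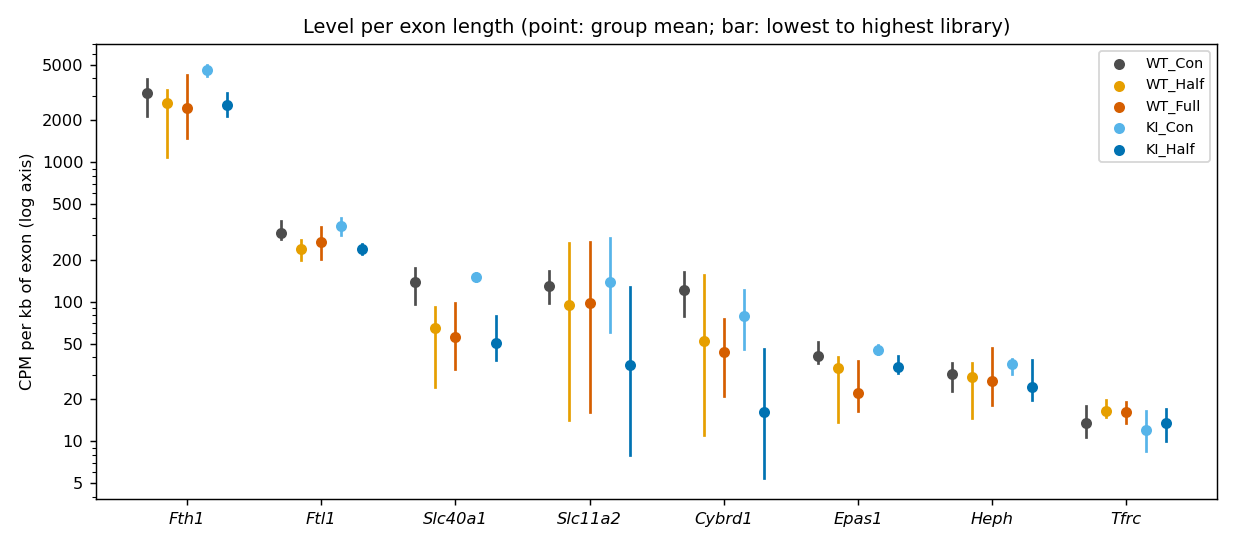
Group mean level per kb of annotated exon (points, log axis) of the 8 genes in the 5 groups, with bars from the lowest to the highest library. In WT_Con Fth1 is at 3155 and Tfrc at 13.5 CPM per kb, while Slc40a1, Slc11a2 and Cybrd1 lie between 121 and 138 there, and their ranges overlap in KI_Half as well.

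Ordered by group mean, each member had 4 pairs of neighbouring groups, 32 in all, and 30 of these overlapped. The 2 that did not were WT_Con above WT_Half in Slc40a1 and KI_Con above WT_Con in Fth1. KI_Con was the highest group in Slc11a2, Slc40a1, Heph, Fth1, Ftl1 and Epas1, WT_Con in Cybrd1 and WT_Half in Tfrc. The lowest was KI_Half in Cybrd1, Slc11a2, Slc40a1, Heph and Ftl1, WT_Full in Fth1 and Epas1, and KI_Con in Tfrc.

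The 8 differed widely in how much libraries of 1 group disagreed. The pooled SD of log2 CPM within groups was 1.32 for Slc11a2 and 1.07 for Cybrd1, larger than in 99.0% and 98.2% of the 13170 genes whose average log2 CPM was 1 or more. It was 0.52 for Slc40a1, 0.44 for Fth1, 0.43 for Heph, 0.39 for Epas1, 0.29 for Tfrc and 0.19 for Ftl1, around a median of 0.3 over those genes. The reductase and importer were thus the least repeatable of the set although they had the largest differences in KI.
Deviations from the group mean were shared between members. Over 25 libraries and 28 pairs of members, with permutation within groups (100000 draws, two-sided), Heph and Fth1 deviated together with r = 0.92 and rho = 0.93 (permutation p = 1e-05, the smallest that can be given, adjusted 0.00028), and r = 0.86 without the 2 farthest libraries. Slc11a2 and Slc40a1 had r = 0.82 and rho = 0.73 (permutation p = 2.00e-05 and 0.00025, adjusted 0.00028 and 0.00233), and r = 0.75 without 2 libraries. Cybrd1 and Slc11a2, the reductase and importer of 1 transport step, had r = 0.75 and rho = 0.72 (permutation p = 0.00032 and 0.00093, adjusted 0.00179 and 0.00434), and r = 0.62 without 2 libraries. Tfrc stood apart: its 7 values of r ran from -0.32 to 0.27, with adjusted permutation p of 0.193 or more. The libraries share the depth, tissue piece and cell makeup behind all these values. The values pool the 5 groups and need not hold in each. In KI_Con, replicate 4 was the highest in Cybrd1 (652 CPM) and the lowest in Slc11a2 (388 CPM).

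**Figure D4:**
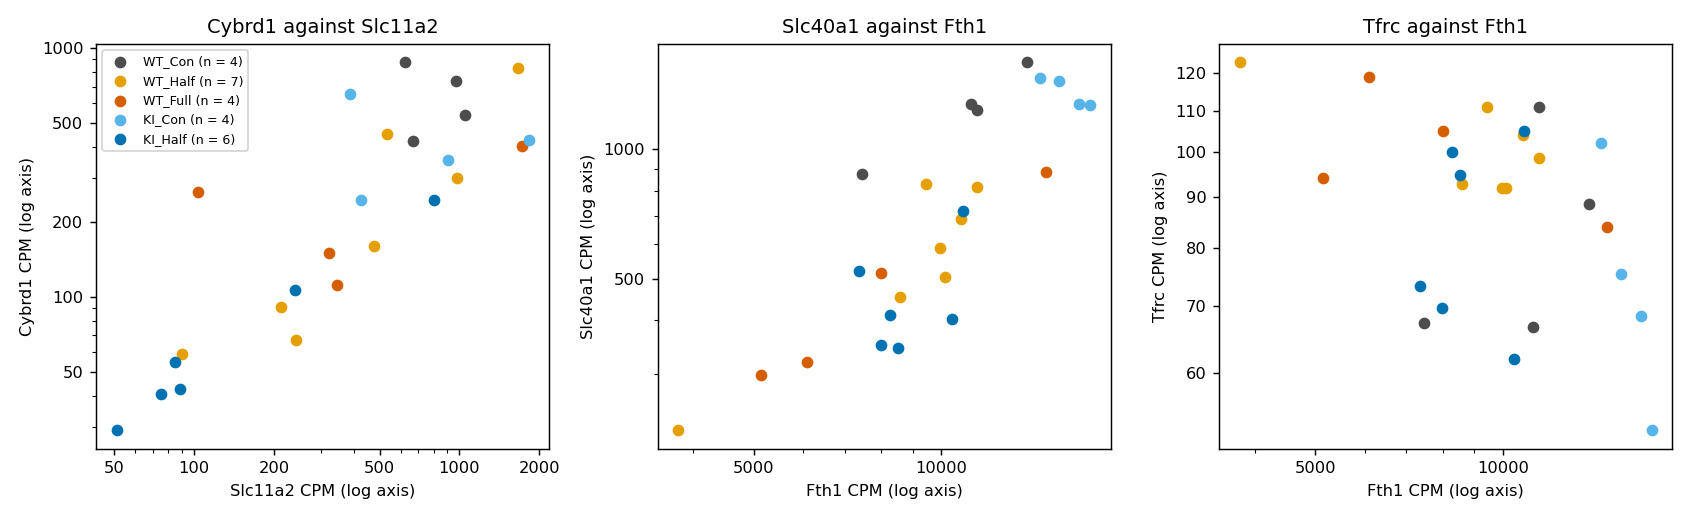
Levels of 2 members against each other in the 25 libraries (CPM, log axes, 1 point per library, coloured by group): Cybrd1 against Slc11a2, Slc40a1 against Fth1, and Tfrc against Fth1. Over the 25 libraries the first 2 pairs rise together, and Tfrc does not rise with Fth1. This does not hold within every group: the KI_Con library highest in Cybrd1 (652 CPM) is the lowest in Slc11a2 (388 CPM). The KI_Con library highest in Fth1 (17333 CPM) is the lowest in Slc40a1 (1266 CPM).

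For each member the 3 other genes with the highest Pearson r of log2 CPM over the 25 libraries were taken as most alike in pattern, which describes these libraries and their groups. For Cybrd1 they were Cdc14a, Galnt10 and Foxo4 (r = 0.92, 0.92 and 0.91), and for Slc11a2 Foxo4, Nat8f1 and Ank (0.93, 0.91 and 0.91). Slc40a1 had the closest match of all, Iyd, with r = 0.98 (0.95 within groups), then Phyh and Ugdh (0.96 and 0.96). Those of Heph were Cdhr2, Lmbrd1 and Cyp4f14 (0.95, 0.95 and 0.94), and those of Fth1 were Cdhr2, Cryl1 and Tmbim6 (0.97, 0.97 and 0.96). Cdhr2 encodes a protocadherin that links brush-border microvilli. For Ftl1 they were Retreg3, Entpd5 and Sdf4 (0.9, 0.9 and 0.89), and for Epas1 Slc5a1, Unc5b and Fbp1 (0.92 each), of which Slc5a1 is the sodium-glucose transporter of the villus and a villus marker above. Tfrc was matched less closely, by Zbtb26, Skp2 and Kntc1 (0.73, 0.72 and 0.72).

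Other genes of iron handling passed the threshold in either direction, in KI_Half vs KI_Con alone of the 7 tests, which does not show that WT was unchanged. Of 34 genes for iron and haem import, export and storage, 32 were measured, 10 were higher and 6 lower. Over all genes tested 20.0% were higher and 17.9% lower, so the 6 falls are near the share over all genes. The median was -0.01 against 0.00 over all genes. The 3 most abundant were Slc46a1, the proton-coupled folate transporter also described as a haem carrier, Slc39a14, a zinc and iron importer, and Ncoa4, the cargo receptor that sends ferritin for breakdown. Slc46a1 fell from 861 ± 119 CPM (SD, n = 4) to 364 ± 138 CPM (n = 6), a log2 change of -1.23 ± 0.24 (adjusted p = 0.00275). Ncoa4 fell from 793 ± 85.4 to 440.2 ± 96.5 CPM, a log2 change of -0.84 ± 0.16 (adjusted p = 0.00257). Slc39a14 differed by -0.26 ± 0.19 and did not pass.
The other falls were the lysosomal channel Mcoln1 (-1.35), the haem exporter Flvcr1 (-1.49), and the transporters Abcg2 (-0.64) and Abcb8 (-0.37). The largest rise was in Lcn2, lipocalin 2, which binds iron-loaded bacterial siderophores, from 3.68 ± 1.21 to 350.1 ± 403 CPM (log2 6.58 ± 1.21, adjusted p = 0.00215). Metalloreductases Steap1, Steap2 and Steap4 rose by 1.77, 1.32 and 2.04, the zinc and iron importer Slc39a8 by 2.00, and the mitochondrial iron importers Slc25a37 and Slc25a28 by 0.64 and 1.80. Flvcr2 (1.89) and Cyb561 (0.38) also rose. Hamp, which encodes hepcidin, and Hmox1, which breaks down haem, differed by -0.02 ± 0.19 and 1.14 ± 0.63 and did not pass.

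Of 14 iron sensors and regulators of hypoxia-inducible factors, 3 rose and 5 fell, with a median of -0.21. The 3 rises are near the share over all genes (20.0% higher), and 17.9% of all genes were lower. Aco1 and Ireb2, which encode the iron regulatory proteins that bind the hairpins printed above, fell by 0.57 ± 0.10 and 0.97 ± 0.22 on the log2 scale (adjusted p = 0.00166 and 0.00536). Aco1 went from 210.0 ± 19.1 to 141 ± 14.2 CPM and Ireb2 from 223 ± 14.9 to 113 ± 38.3 CPM. The third most abundant, the prolyl hydroxylase Egln2, differed by -0.10 ± 0.11 and did not pass. Hif1a, the HIF-1α gene, rose from 26.9 ± 4.22 to 98.2 ± 59.7 CPM (1.88 ± 0.45, adjusted p = 0.0081), while Epas1 had fallen. Hif3a (2.98) and Egln1 (0.29) rose, and Egln3 (-0.84), Hif1an (-0.32) and Hjv (-0.88) fell. Hif3a and Hjv were low in level, at 0.545 and 1.15 CPM in KI_Con and 4.30 and 0.614 CPM in KI_Half.
Of 12 intestinal HIF-2 and hypoxia-response genes, 4 rose and 1 fell, where 20.0% of all genes rose and 17.9% fell, with a median of 0.21. The rises were in Mt1, a metal-binding metallothionein (187 ± 31.6 to 655 ± 425 CPM, log2 1.82), Slc2a1, a glucose transporter (1.99), Ndrg1 (1.46) and Adm (2.56). Bnip3 fell by 0.48. Vegfa (-0.10 ± 0.17) and Car9 (0.21 ± 0.10), the other 2 most abundant, did not pass. In WT_Half vs WT_Con none of these 3 lists had a call, with medians of 0.04, -0.17 and 0.20, and in WT_Full vs WT_Con none either, with medians of -0.03, -0.08 and 0.22. Some genes called in KI differed by as much in WT_Half: Flvcr2 by 1.89 ± 0.47, Hif3a by 2.77 ± 0.68 and Slc25a37 by 0.65 ± 0.23. Their adjusted p there was 0.062, 0.062 and 0.136. Flvcr2 and Hif3a were low in level, at 0.865 and 0.524 CPM in WT_Con and 3.20 ± 1.70 and 3.57 ± 3.18 CPM (SD) in WT_Half. Other genes called in KI did not differ by as much in WT_Half: Steap4 differed by -0.02 ± 0.26 and Steap1 by 0.17 ± 0.42. Whether the genes of these lists respond differently in the genotypes was tested by the interaction, in which no list had a call.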

How the data were processed

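The submitters' processing notes name FastQC, Trimmomatic, HISAT2, SAMtools, featureCounts and DESeq2 as tools and GRCm38 as the genome build. Strand setting, annotation release and the handling of multi-mapped reads are not stated there, so overlapping and antisense genes may share reads. The deposited counts are whole reads per gene, not normalised, and the deposited log2 fold changes and deposited p-values are the authors' DESeq2 results, per the file headers. The 2 deposited tables held equal counts, and 17220 lines gave 17007 genes after 213 repeated lines were merged. No libraries of a group agreed within sampling noise (chi-square per degree of freedom at least 30.8).

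The count test was that of edgeR 4.0.16 under R 4.3.3 (quasi-likelihood F test, TMM scaling, default low-count filter, each comparison on its own groups, two-sided, Benjamini-Hochberg over all genes tested, threshold 0.05), limma 3.58.1 and DESeq2 1.42.0. All 8 members passed the low-count filter in each test. Of 17007 genes, 16995 were found in GENCODE M21, the source of coordinates and sequences. Alternatives were DESeq2, RLE size factors, no filter, 1 fit of all 25 libraries, a replicate block and leaving out each library.

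Named were all members, the 3 genes most alike in pattern to each, and, of each pathway list, the 3 most abundant genes and those past the threshold; Hamp and Hmox1 were added after their values were seen. The values of 1 listed gene are not reported here. The members and lists were chosen with earlier results of these data known, and support nothing by their choice. On simulated counts in the design of KI_Half vs KI_Con (16944 genes), 51 of 100 genes changed 2-fold and 84 of 100 changed 4-fold were recovered, and in that of WT_Full vs WT_Con (16882 genes) 12 and 70.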

Additional observations from a re-analysis of the deposited data

Results flagged for a closer look

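Within-group outliers were sought by the gap of the highest or lowest library to the nearest other, relative to the group's range, in 40 groups (8 genes in 5 groups). The gaps were taken on CPM, not on the log2 scale of the tests. Chance flags about 1 in 20 groups of normally spread values, which CPM need not be, so that rate is only a rough guide to the 8 that stood out here. They fall in 4 libraries, and values of several genes in 1 library are not independent.

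KI_Half replicate 7 was high in Cybrd1 (244 CPM against 29.1 to 107 in the other 5), in Slc11a2 (805 against 51.1 to 241) and in Heph (292 against 151 to 195). WT_Full replicate 4 was high in Slc11a2 (1718 CPM against 104 to 346) and in Epas1 (211 against 92.9 to 102). WT_Half replicate 1 was low in Fth1 (3781 CPM against 8591 to 11417) and in Epas1 (76.9 against 182 to 226). WT_Con replicate 2 was high in Epas1 (289.7 CPM against 205 to 218).

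Beside these, the villus marker sum was 38935 CPM in KI_Half replicate 7, the highest of its group, 52432 CPM in WT_Full replicate 4, also the highest, and 20515 CPM in WT_Half replicate 1, the lowest. In WT_Con replicate 2 it was 39141 CPM, inside the 21423 to 45431 CPM of its group. KI_Half replicate 1, which was not flagged, had a sum of 36657 CPM with Slc11a2 at 84.6 CPM. The part of these sums in the outlying values was not tested.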

How the results depend on the processing

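In KI_Half vs KI_Con, 5 to 7 of the 8 members passed when single libraries were left out, where 29.0% to 44.2% of all genes did. The 7 passed without KI_Half replicate 7, the fit with 44.2%. In 1 fit of all 25 libraries 4 passed (Heph and Epas1 were lost), among 32.0% of genes. Without the 4 acinar-rich control libraries 3 passed, among 7.92% of genes. In WT_Half vs WT_Con the count was 2 with DESeq2 (7.99% of all genes) and 1 in the fit of all 25 libraries (4.23%). It was 0 to 1 with libraries left out (0.124% to 2.63%). In WT_Full vs WT_Con it was 2 with DESeq2 (5.52%) and 2 in the fit of all 25 libraries (Slc40a1 and Epas1, 7.58%). With libraries left out it was 0 to 4 (0% to 12.2%). Size factors by relative log expression and no filter left all 7 counts as they were. Over all genes, WT_Half vs WT_Con called 249 and DESeq2 1353, and WT_Full vs WT_Con called 1, 934 with DESeq2 and 2069 without WT_Full replicate 4. KI_Half vs KI_Con called 6420 on its own groups and 5439 in the fit of all 25 libraries. The fit of all groups without the acinar-rich controls called 1347.

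Fits with the replicate number as a block kept only libraries whose replicate number occurs in every group compared. In KI_Half vs KI_Con these were replicates 1 to 3, so KI_Half replicate 7 was left out. There 7 members passed (Slc11a2 at -3.42, adjusted p = 0.00225), among 36.4% of genes, and 0 passed in the other 6 tests. The block and the smaller set of libraries cannot be told apart in these fits. Deviations of same-numbered libraries correlated from -0.40 (KI_Half vs WT_Half, replicate 7) to 0.51 (WT_Full vs WT_Half, replicate 1). The labels give no pairing or batch, and these mixed values do not decide whether same-numbered libraries share one. In the block fits the sign of small, uncalled differences turned: in WT_Full vs WT_Half Cybrd1 to 0.14 and Slc11a2 to -0.01, and Tfrc in KI_Half vs KI_Con to -0.09. Slc11a2 in KI_Con vs WT_Con turned to -0.20, Fth1 in KI_Half vs WT_Half to 0.05 and Epas1 in the interaction to 0.16. Without the acinar-rich controls, Cybrd1 and Epas1 in KI_Con vs WT_Con turned to 0.16 and -0.01, and Epas1 in the interaction to 0.04.

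Leaving out single libraries let uncalled differences cross 0 as follows. In WT_Half vs WT_Con Heph ran from -0.17 to 0.05. In WT_Full vs WT_Half Cybrd1 ran from -0.65 to 0.32, Slc11a2 from -1.2 to 0.56, Heph from -0.49 to 0.04, Fth1 from -0.49 to 0.07 and Tfrc from -0.11 to 0.08. In KI_Con vs WT_Con Slc11a2 ran from -0.55 to 0.34 and Slc40a1 from -0.01 to 0.26. In KI_Half vs WT_Half Epas1 ran from -0.12 to 0.08, Fth1 from -0.18 to 0.02 and Ftl1 from -0.06 to 0.02, and Tfrc in the interaction from -0.28 to 0.08. Cybrd1 and Slc11a2 did not cross 0 but moved widely, in WT_Half vs WT_Con from -1.77 to -1.02 and -0.97 to -0.28, and in the interaction from -1.73 to -0.49 and -2.55 to -0.89. The cause was not tested.

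With 888 or more counts per member and library, counting error is small beside the spread between libraries, which sets the precision here.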
